A study of Mus musculus with 2 samples.

Results

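Yeats4 is the gene whose deletion this study examined. It was described here together with its YEATS domain relatives Yeats2 and Mllt1 and with 7 genes for subunits of the SRCAP and Tip60 chromatin complexes: Actr6, Epc2, Ing3, Srcap, Ep400, Dmap1 and Kat5. A gene was taken as the probe set that the platform annotation gives its symbol. Of the 10 genes, 9 had such a probe set, each exactly 1, out of 19505 genes named on the arrays. Srcap was not analysed here because no probe set is listed under its name. The data are 2 microarrays from mice. Array 1 carried RNA of wild-type progenitors of innate lymphoid cells (ILC). Array 2 carried RNA of ILC progenitors labelled as Yeats4 knockout, whose wild-type counterparts were littermates. Both samples were sorted by flow cytometry for cells without lineage markers, positive for CD127 and for the integrin α4β7, with c-Kit and Sca-1 at intermediate level. ILC progenitors are the marrow cells from which helper-type innate lymphoid cells arise. The labels do not say how the gene was deleted, which promoter drove any recombinase, how old the mice were or how many were pooled. Each genotype has 1 array, so no difference below has a replicate check or a test.

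YEATS domain proteins bind acetylated and otherwise acylated lysines on histone H3 tails. Yeats4, also called GAS41, is a subunit of both SRCAP, which exchanges histone H2A for its variant H2A.Z in nucleosomes, and Tip60, which combines such exchange with acetylation of histones H4 and H2A. Yeats2 is the reader subunit of the ATAC acetyltransferase complex. Mllt1 (ENL) and Mllt3 (AF9) are readers that connect the super elongation complex and the methyltransferase Dot1l to acetylated chromatin.

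The values are log2 expression values, and every difference is the knockout-labelled reading less the wild-type reading on that scale. The 95th percentile of 5222 negative control probe sets was 4.80 (wild-type) and 4.73 (knockout-labelled). A gene below these levels on both arrays is described as near background. To show how far other genes scatter, the 500 genes nearest in mean level serve as a yardstick for each gene. Their scatter is given as the scaled median absolute deviation (the spread) and as the central 95% of their differences. This scatter contains any true differences among those genes and is no replicate error. Probe sets bind with different efficiency, so the level of a gene is never set against that of another gene.

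The reading of Yeats4 was nearly the same on both arrays. Its probe set (Entrez gene 64050) gave 5.96 in wild-type and 5.90 in knockout-labelled progenitors. The difference was -0.06, inside the central 95% of genes of like level (-0.52 to 0.71, spread 0.34). After a loess correction on level it was -0.20. Among the 500 genes of like level, 140 had a lower difference and 360 a higher one, and only 1 differed 2-fold in either direction. Both readings were well over the negative controls, of which 97.8% (wild-type) and 98.1% (knockout-labelled) lay below Yeats4. The position of the probes relative to the deletion is not known here. The reading therefore says nothing for or against the label, and the term knockout-labelled is used for that array.

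The start region of Yeats4 is shown because its probe set read nearly the same on both arrays. Which transcript gave the knockout-labelled reading was not examined. The 250 bases before the RefSeq start site (GRCm38.p6, chr10:117224508-117224757, minus strand) are printed 5′ to 3′ with each of the 11 CG pairs in capitals.
Yeats4: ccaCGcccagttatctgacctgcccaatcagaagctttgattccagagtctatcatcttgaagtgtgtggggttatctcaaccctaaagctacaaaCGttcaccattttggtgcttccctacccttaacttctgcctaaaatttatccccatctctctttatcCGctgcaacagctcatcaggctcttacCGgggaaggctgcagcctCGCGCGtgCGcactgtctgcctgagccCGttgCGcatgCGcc
Of the CG pairs, 7 lie in the last 50 bases, next to the start site. RefSeq gives 13 start regions for the 10 genes, Srcap included, each with 250 bases before and 50 after the start. Of these 13, 9 held at least 20 CG pairs, against 26.5% of all 32851 start regions of the same length. Yeats4, with 17 in its 300 bases, was not among the 9. Both regions of Actr6 and both of Ing3 overlap each other and are counted separately, and by gene 7 of 10 had such a region, against 28.8% of all genes listed. The letters CCAAT, searched on both strands, were in 6 of the 13 and in 37.4% of all regions. The letters TATAAA, searched likewise, were in none of the 13 and in 13.6% of all. These 3 searches were counted separately. They describe the sequence and were not related to the array values.

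**Figure D1:**
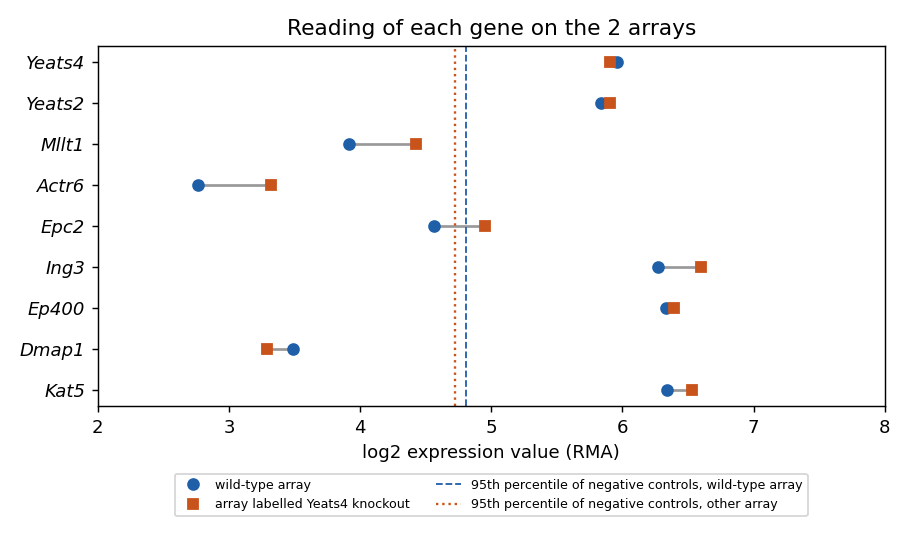
Log2 expression value (x axis) of each of the 9 genes on the wild-type array (circles) and on the knockout-labelled array (squares), 1 array each, with the 95th percentile of negative controls as vertical lines. Yeats4, Yeats2, Ing3, Ep400 and Kat5 lie above both lines, Mllt1, Actr6 and Dmap1 lie below both, and Epc2 lies between the groups.

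No gene of the set differed 2-fold, and Yeats4, Yeats2 and Ep400 were within 0.1 of 0 as deposited. The count past 2-fold was 0 of 9, and past 1.5-fold it was also 0 of 9, or 1 of 9 after a loess correction or quantile normalization, when Actr6 reached 0.60 and 0.59. Actr6 was near background on both arrays, so that crossing is of a measured value only. A level filter kept the 10881 genes whose mean reached the median over the probe sets (2.88). Of these, 2.34% were past 2-fold (1.56% higher and 0.781% lower, or 170 and 85 genes, which became 123 and 118 after centring on the median) and 14.3% past 1.5-fold. All 9 genes passed that level filter, and all 9 lay inside the central 95% of their genes of like level, where most genes lie by construction. The 5 genes above the negative control level on both arrays ranged from -0.06 to 0.33, with a median of 0.07. Over all 9 the median was 0.20, against 0.08 for all genes past the filter, and 0.04 after the loess correction. Above 0 were 7 of the 9 as deposited and 5 of the 9 after centring or loess correction, against 58.2% of all genes past the filter as deposited. Of the 9, 5 were above and 4 below the median of their own genes of like level. Actr6, Epc2, Ing3 and Mllt1 were already known to differ most when the set was chosen. That choice partly fixes the median of the 9 and these counts, so they are no support for a shift of the set.

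**Figure D2:**
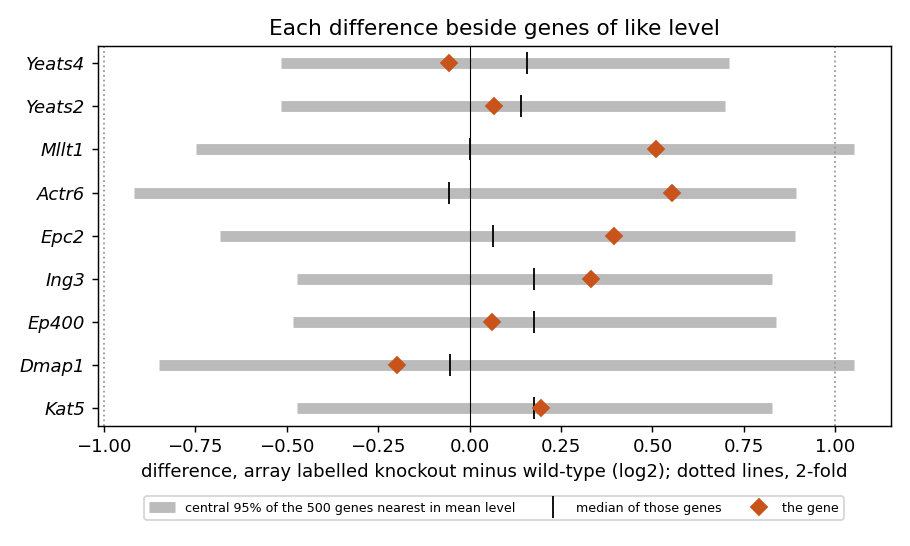
Difference of each of the 9 genes (diamonds; x axis, log2) with the median (tick) and central 95% (bar) of the 500 genes nearest in mean level. Every diamond lies on its bar, and Yeats4 at -0.06 lies left of the tick at 0.16.

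Among the relatives that share the YEATS domain, Yeats2 was as even as Yeats4 in the values as deposited. After the loess correction Yeats4 was farther from 0 (-0.20, against -0.08 for Yeats2). Yeats2 (Entrez gene 208146) gave 5.84 in wild-type and 5.90 in knockout-labelled cells, a difference of 0.07 with a spread of 0.34 at its level. Of the 500 genes of like level, 211 had a lower difference. Relative to the median of all genes Yeats2 was at -0.02, and after a loess correction on level at -0.08, so its sign is not settled. Mllt1 (Entrez gene 64144) read 3.91 and 4.42, in the same order of arrays. It was higher by 0.51 as measured, but both readings were near background, and 422 of 500 genes of like level had a lower difference at a spread of 0.47. Mllt3 read 2.71 and 2.82, under the level filter and near background on both arrays. Of the YEATS family, only Yeats4 and Yeats2 were read above background, and both readings of each lay within 0.1 of each other.

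The enzymes of the Tip60 complex differed by less than the spread at their level. Ep400, the ATPase that drives its exchange activity (Entrez gene 75560), gave 6.34 in wild-type and 6.40 in knockout-labelled cells. Its difference of 0.06 lay below the median of genes of like level (0.18), and it was -0.02 after centring and -0.10 after the loess correction. Kat5, the acetyltransferase also known as Tip60, read 6.34 and 6.53 (Entrez gene 81601). Its difference of 0.20 was close to the middle of its genes of like level, with 257 lower and 243 higher. The like-level spread was 0.30 for both genes, larger than either difference.

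Among the scaffold and reader subunits, Ing3 was read above background on both arrays, Epc2 on only the knockout-labelled array, and Actr6 and Dmap1 on neither. Ing3, a PHD finger protein that binds methylated histone H3 (Entrez gene 71777), gave 6.27 in wild-type and 6.60 in knockout-labelled cells. It was higher by 0.33, and 355 of 500 genes of like level had a lower difference at a spread of 0.30. As deposited, Ing3 was farthest from 0 among the 5 genes read above background on both arrays, but after the loess correction Yeats4 was farther (-0.20 against 0.17 for Ing3). Ing3 lay 0.16 above the median at its level. Epc2, an enhancer of polycomb protein of the Tip60 core, read 4.56 and 4.96 (Entrez gene 227867). The wild-type reading was under the negative control level, so Epc2 was at least 1.11-fold higher on the knockout-labelled array, a limit that takes the other reading as exact. As measured the difference was 0.40, with 396 of 500 genes of like level lower and a spread of 0.42.

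Actr6, an actin-related protein of SRCAP that takes part in H2A.Z deposition, read 2.76 and 3.32 (Entrez gene 67019). Its difference of 0.55 was the highest of the 9, but it was near background, with 72.8% (wild-type) and 83.2% (knockout-labelled) of negative controls below it. At that level 439 of 500 genes had a lower difference and 21 of 500 differed 2-fold in either direction. Dmap1, a subunit that SRCAP and Tip60 share, read 3.49 and 3.29 (Entrez gene 66233). It was at -0.20, near background on both arrays, and 186 of 500 genes of like level were lower at a spread of 0.47. For Mllt1, Actr6 and Dmap1 no size of fold is given, since neither array read them above the negative controls.

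**Figure D3:**
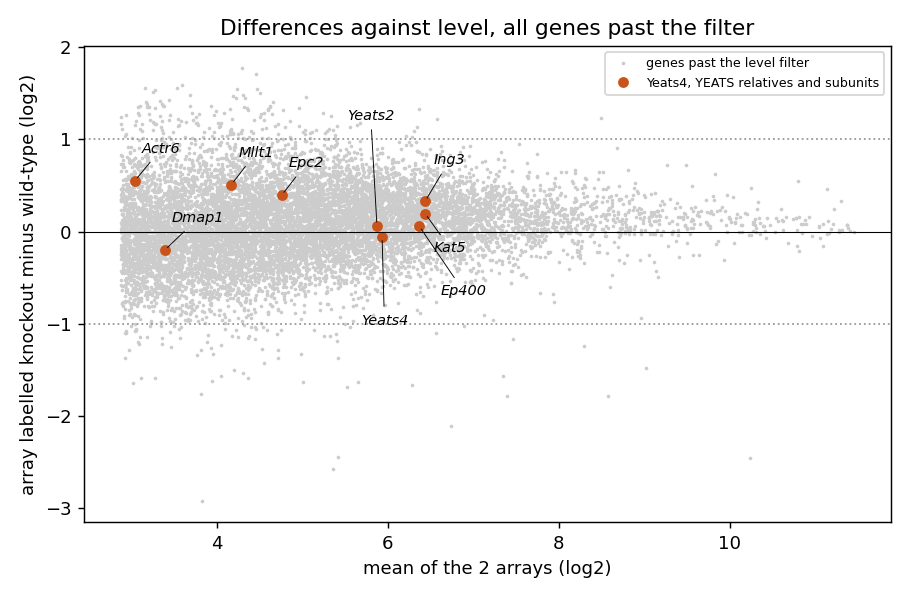
Difference (y axis, log2, array labelled knockout minus wild-type) against the mean of the 2 arrays (x axis, log2) for 10881 genes past the level filter (grey) and the 9 genes of the set (coloured). The cloud is widest at low levels, where Actr6 (0.55) and Mllt1 (0.51) lie, and Yeats4 (-0.06) and Yeats2 (0.07) lie near a mean of 6.

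The other subunits of the complexes lay inside the scatter of like-level genes, where most genes lie by construction. Together 21 SRCAP and Tip60 subunits were listed, 19 had a probe set and passed the filter, and all 19 lay inside the central 95% of genes of like level. None of the 19 was past 1.5-fold as deposited, against 14.3% of all genes past the filter. That share varied with level, from 20.2% at means between 2.88 and 4 to 8.29% between 6 and 7. Their median was 0.15 (range -0.25 to 0.55), against 0.08 for all genes past the filter. Above 0 were 13 and below 0 were 6, where 58.2% of all genes past the filter were above 0. Among the 19 are Actr6, Epc2 and Ing3, already known to differ when the set was chosen, which partly fixes this median and count. After the loess correction the median of the 19 was 0.03, with 10 above 0 and 9 below. The SRCAP subunit Znhit1, a zinc finger HIT protein, read 6.72 and 7.04, a difference of 0.32. Among the 6 subunits that SRCAP and Tip60 share, 3 were above and 3 below 0, with a median of 0.03 that was -0.05 after centring and -0.10 after the loess correction. Of these, Ruvbl1, an AAA+ ATPase, was at 0.31, and Vps72, the YL1 protein that binds H2A.Z, was at -0.25 with 63 of 500 genes of like level lower. The 11 measured subunits particular to Tip60 by the list had a median of 0.20 (0.04 after the loess correction), with Epc2 and Ing3 followed by the methyl-lysine binding protein Mbtd1 at 0.30. Mbtd1, whose wild-type reading was under the negative control level, was at least 1.19-fold higher. The H2A.Z genes H2az1 (9.45 and 9.68, a difference of 0.23) and H2az2 (6.88 and 6.83, a difference of -0.05) lay on either side of 0. The chaperone Anp32e, which removes H2A.Z, was at 0.25 near background.

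In the ATAC complex, which Yeats2 belongs to, 9 of 10 genes with a probe set passed the filter. Of these, 8 were above 0 and the median was 0.28 (7 and 0.18 after the loess correction). Among all genes past the filter 58.2% were above 0 and the median was 0.08, as deposited. None of the 9 ATAC genes was past 2-fold, against 2.34% of all genes past the filter. Sgf29, its Tudor domain subunit that binds methylated histone H3, gave 6.27 in wild-type and 6.88 in knockout-labelled cells. That is 1.52-fold higher (0.61), with 459 of 500 genes of like level lower. Sgf29 was the only ATAC gene past the filter and at least 1.5-fold higher, against 9.16% of all genes past the filter, and it fell short of 1.5-fold after the loess correction (0.45). Wdr5, a WD repeat adaptor of several chromatin complexes, was at 0.46, and the histone fold protein Dr1 at 0.42. In the list of super elongation and Dot1l complex genes, which holds Mllt1 and Mllt3, 11 of 14 with a probe set passed the filter, 5 were above and 6 below 0, and the median was -0.01, or 0.03 with the level filter at the 75th percentile. The elongation factor Ell was lowest at -0.61, the only gene of that list at least 1.5-fold lower as measured, against 5.16% of all genes past the filter, and Ell2 was at -0.40. Both were near background on both arrays and were at 0.00 with readings raised to the negative control level.

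**Figure D4:**
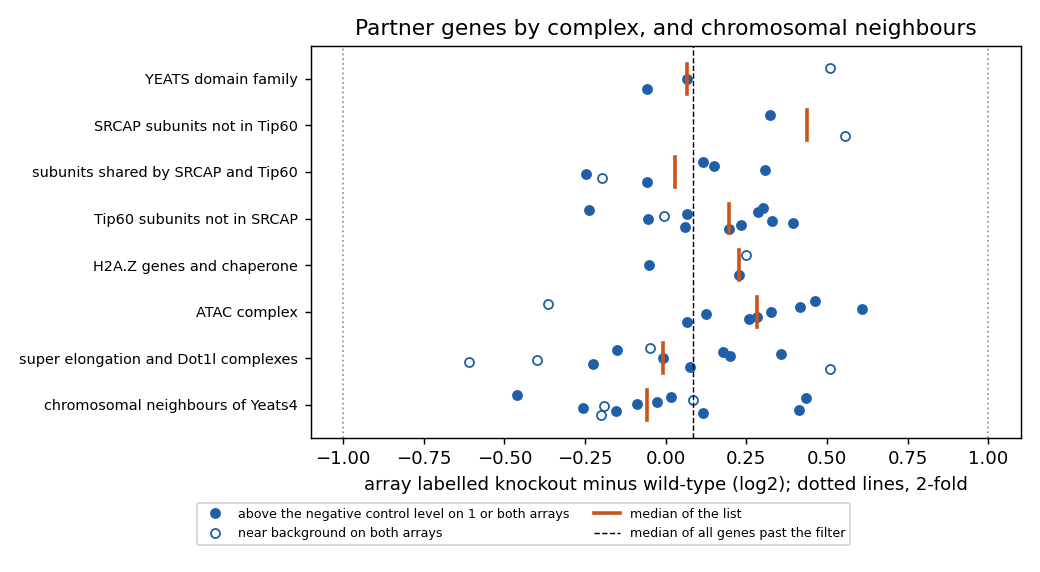
Differences (x axis, log2) of the genes past the level filter in 8 lists, 1 point per gene, open where near background on both arrays, with each list's median as a bar and the median of all genes (0.08) as a dashed line. No point reaches the dotted 2-fold lines, and the list medians run from -0.06 for the chromosomal neighbours to 0.44 for the 2 measured SRCAP subunits.

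The genes next to Yeats4 on its chromosome were examined for a shift around the deleted gene. Of the 10 protein-coding genes on each side, 19 had a probe set and 12 were past the filter. Differences of the 12 ran from -0.46 to 0.44 with a median of -0.06, which was -0.18 after the loess correction. Above 0 were 5 and below 0 were 7. Among all genes past the filter 58.2% were above 0 and the median was 0.08, as deposited. None of the 12 was past 1.5-fold, against 14.3% of all genes past the filter, a share that varied with level. On one side the nearest gene, Frs2, was not analysed here, and the next, Cct2, a chaperonin subunit, was at 0.41 (8.91 and 9.33). On the other side the nearest gene, 9530003J23Rik, was at 0.08 and near background. The next, Lyz2, the lysozyme gene of myeloid cells, was at -0.26 (9.77 and 9.51), with 23 of 500 genes of like level lower. At this high level those 500 genes spanned means from 7.92 to 11.37. Nup107, a nuclear pore subunit, was at 0.44, and Mdm1 at -0.46 with its reading on the knockout-labelled array under the negative control level. The carboxypeptidase gene Cpm was the only neighbour with a measured difference past 2-fold (-1.49), but it read 3.14 and 1.65, near background and under the level filter.

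The genes whose readings lay closest to those of Yeats4 were found by distance in the plane of the 2 arrays, over 2 values each. Leaving out predicted genes, they were Leng8 (distance 0.01), Gtpbp1 (0.01), Pym1 (0.02), Ptprcap (0.02) and Notch2 (0.03). Such closeness reflects equal readings on 2 arrays and is no measure of abundance.

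Other genes differed far more on the same arrays. Lmo4, a LIM domain cofactor, gave 11.47 in wild-type and 9.01 in knockout-labelled cells, and none of its 500 genes of like level had as low a difference. Those 500 genes spanned means from 7.93 to 11.45, so they were only loosely of like level. Across the filtered genes, which are not independent replicates, the correlation of the arrays was r = 0.965. The median difference varied with level, from -0.04 at means between 2.88 and 4 to 0.17 between 6 and 7. Of the 5 sort gate genes, 4 were above the negative control level on both arrays, namely Il7r (CD127) at 7.07 and 6.38, Kit at 7.12 and 7.77, Itga4 at 7.38 and 7.38, and Itgb7 at 6.46 and 6.32. Ly6a (Sca-1) was not analysed here. Of the ILC progenitor markers, Id2 gave 7.88 and 9.11, Nfil3 9.43 and 8.49, and Tox 6.48 and 5.90, while the knockout-labelled reading of Zbtb16 (5.04 and 4.68) lay below the negative control level. Tcf7 and Gata3 were not analysed here. Markers of other cells differed as well. At least 2-fold lower as measured were 5 of 6 T cell genes, 3 of 5 eosinophil genes and 2 of 4 NK cell genes, against 0.781% of all genes past the filter. The knockout-labelled readings of Cd3d, Cd3g, Cd8a, Cd8b1 and Eomes were under the negative control level. Taking the wild-type reading as exact, Cd3d was at least 1.39-fold lower, Cd3g 2.02-fold, Cd8a and Cd8b1 3.57-fold and Eomes 1.24-fold. The rest of the T cell, eosinophil and NK cell lists went the other way. Cd4 was at 0.09, the eosinophil genes Ccr3 and Siglecf at 0.96 and 0.14, and the NK cell genes Ncr1 and Klrb1c at 0.30 and 0.18. Siglecf, Ncr1 and Klrb1c were near background, and the wild-type reading of Ccr3 was under the negative control level. All 4 B cell genes past the filter were below 0, as were 4465 of all 10881 genes past it. The knockout-labelled reading of the B cell gene Pax5 (5.65 and 4.32) was under the negative control level. Above 0 were 6 of 6 macrophage genes, of which Cd5l and Adgre1 were near background, and 4 of 5 neutrophil genes, against 58.2% of all genes past the filter. The other neutrophil gene, Ltf, was at -0.55, with 5 of 500 genes of like level lower. Within bulk RNA, fewer cells of a type and less RNA per cell cannot be told apart. The part of these cells in the readings of the chromatin genes was not tested.

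**Figure D5:**
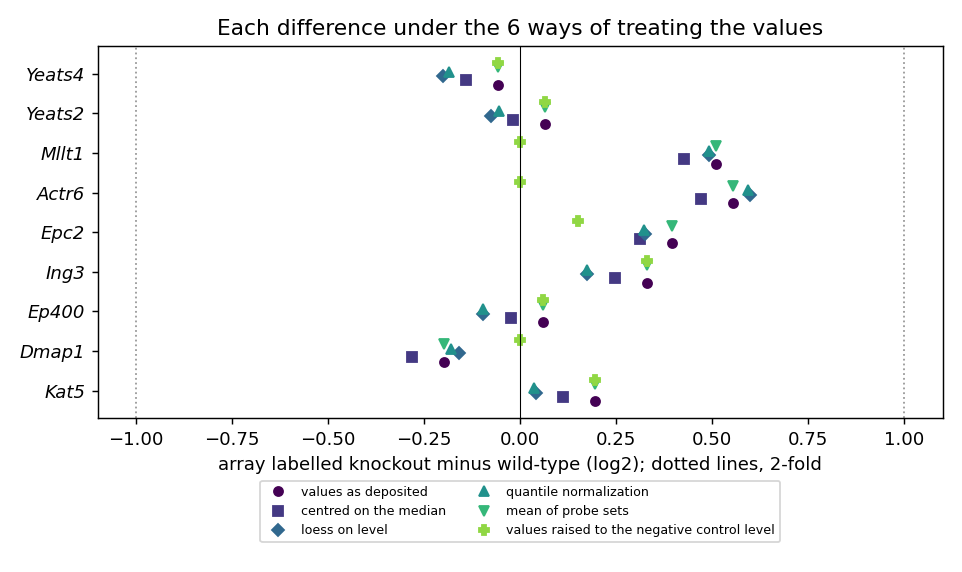
Difference of each of the 9 genes (x axis, log2) with the values as deposited and under 5 other treatments, 1 symbol per treatment. Yeats2 and Ep400 change sign with the scaling, Mllt1, Actr6 and Dmap1 fall to 0 when readings are raised to the negative control level, and no symbol reaches 2-fold.

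No treatment of the values brought any of the 9 genes past 2-fold, but some turned the sign of small differences. Yeats4 ranged from -0.20 to -0.06 over the 5 other treatments. Ing3 ranged from 0.17 to 0.33 and Kat5 from 0.04 to 0.20, both above 0 throughout. Epc2 ranged from 0.15 to 0.40. Yeats2 and Ep400 turned to values below 0 with centring, loess correction or quantile normalization.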

How the data were processed

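The deposited table holds log2 expression values for 29129 probe sets on 2 arrays, made by the authors with Affymetrix Power Tools and RMA, per the submitters' processing notes. RMA corrects background, quantile-normalizes arrays and summarises probes, so a change in total RNA per cell is not visible. Column medians were 2.91 (wild-type) and 2.87. For tool versions and the build, the sources used here name none. The array named in the design text is not the Affymetrix design whose annotation the probe sets match. Of the probe sets, 19572 have 1 gene symbol, none has several and 9557 have none. All named ones were found by gene identifier in the reference table (GRCm38.p6), used for names and gene order.

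Differences, like-level spreads and medians were computed with Python 3.11.15, numpy 2.4.6, pandas 2.3.3 and statsmodels 0.14.6 (loess, span 0.3), and the code was tested on simulated data. The number of arrays limits the precision. The rule named all 10 genes, Lmo4, in each list genes past 2-fold and the 3 largest differences past the filter, the nearest neighbours and the 5 genes closest to Yeats4. Mllt3, Lyz2, Kat2b and the markers were named outside it. Members and lists were chosen with earlier results of these data known, and Actr6, Epc2, Ing3 and Mllt1 were already known to differ most.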

Additional observations from a re-analysis of the deposited data

How the results depend on the processing

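With 1 array per genotype no replicate can be left out, and precision is limited by the number of arrays. No paired analysis was possible because each genotype has a single array. The alternatives were centring, loess correction, quantile normalization, averaging a gene's probe sets, other level filters, 1.5-fold in place of 2-fold, and 200 or 1000 genes of like level. Of 45 values for the 9 genes under 5 alternatives, 43 moved by less than the like-level spread. The exceptions were Mllt1 and Actr6, both at 0.00 where readings were raised to the negative control level of 4.80, an alternative chosen after seeing the data, since neither array read them above it. Many of the 45 values could not move past the spread. Each of the 9 genes has 1 probe set, so averaging changed nothing. Centring lowered each by the same 0.08, against a lowest spread of 0.30. Raised readings could not change the 5 genes above the level on both arrays. All 56 list medians moved by less than the spread, although 11 took another sign or became 0. For list medians too, averaging changed nothing and centring was a constant shift. The count of 0 of 9 genes past 2-fold was the same under each alternative, and all 18 places among genes of like level stayed within their 95% binomial interval. Counts over all genes were less stable. From 170 higher and 85 lower, they became 123 and 118 after centring, 148 and 90 after the loess correction, 997 and 561 at 1.5-fold, 35 and 25 with a level filter at the 75th percentile, and 19 and 23 with raised readings. With no level filter 137 were lower.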

Other observations

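The Y-linked genes gave a difference of another kind between the arrays. The translation factor gene Eif2s3y gave 3.40 in wild-type and 5.18 in knockout-labelled cells, Uty read 2.51 and 4.05, and Kdm5d read 1.62 and 3.22. Uty and Kdm5d were near background on both arrays. The labels do not give the sex of the mice, and the part of such a difference in the readings of the chromatin genes was not tested. Near background, the ATAC acetyltransferase Kat2b, a relative of Kat2a, was under the level filter at 2.03 and 2.74.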
